A study of Mus musculus with 6 samples.

Results

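Macrophages and monocytes are phagocytes: they take up particles through surface receptors, digest them in lysosomes with cathepsins and lysozyme, and secrete complement C1q, apolipoproteins and protease inhibitors. In the mouse spleen, red pulp macrophages carry the surface receptor Adgre1 and clear aged red cells. A panel of 33 genes of these functions was followed in natural killer (NK) cells sorted by CD117, the receptor encoded by Kit. Members were chosen by symbol: every array probe annotated to a member was found, old symbols were updated by gene ID, and each gene was read from the probe with the highest mean over the 6 arrays in the deposited value table. Of the 33 members, 32 had a probe, among 17626 genes with a probe in all; Cd68 had no annotated probe, and its expression was not analysed here. A filter on dim probes left 26 of the 32 among the 11742 genes that were tested.

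The Kit+ group held 3 samples of CD3-negative, NK1.1-positive, CD117-positive spleen cells, and the Kit- group 3 samples of CD3-negative, NK1.1-positive, CD117-negative spleen cells. All came from untreated female C57Bl/6 mice, 7 weeks old, and went through magnetic enrichment before sorting, with a purity of around 98% per the labels. Sorts were done 3 times, and the titles number the samples 1 to 3 in each group. The titles do not name this number as a sort. Kit+ and Kit- samples of the same number were compared as pairs. The labels do not say how many mice were pooled for a sort. With pairing, the p-values set the Kit+ minus Kit- difference against how much it varies between the 3 pairs. The limma fit draws each gene's variance toward a value shared over all tested genes. A printed SE or p-value thus reflects that shared variance as well as the gene's own spread. Each sample went on 1 single-colour Illumina bead array, and values are normalized log2 intensities. Here a lower level in a bulk sample can mean fewer cells that hold the transcript or less of it per cell, which cannot be told apart.

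As a yardstick for dim probes, 1174 probes of odorant and vomeronasal receptors, genes best known from sensory neurons, were taken, and their 95th percentile on an array is called the receptor level. It ranged from 6.58 on Kit- 1 to 7.23 on Kit- 2, and the share of all probes above it ranged from 15.1% on Kit- 2 to 29.8% on Kit- 1. Kit stood at 10.68, 12.09 and 10.76 in Kit+ samples 1 to 3 and at 7.73, 8.79 and 8.50 in Kit- samples 1 to 3. Klrb1c, which encodes NK1.1, lay above the receptor level on all 6 arrays, between 10.97 and 12.01 in Kit+ and between 11.45 and 12.48 in Kit-.

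Macrophage and monocyte genes fell into 3 classes. Ctss, Ctsb, Tlr4 and Cebpb, 4 of 32, were above the receptor level on all 6 arrays. Cd14, Cd163, Msr1, Sirpa, Cd36 and Spic, 6 of 32, stayed at or under it on all 6, and these 6 are also the members that the filter removed. The other 22 were above it on some arrays, and 10 of them on all 3 Kit+ arrays: Lst1, Mpeg1, Slpi, Ear10, Ear3, Adgre1, Apoe, Ly86, Tlr2 and Pld4. None of these 10 was above it on all 3 Kit- arrays.

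**Figure D1:**
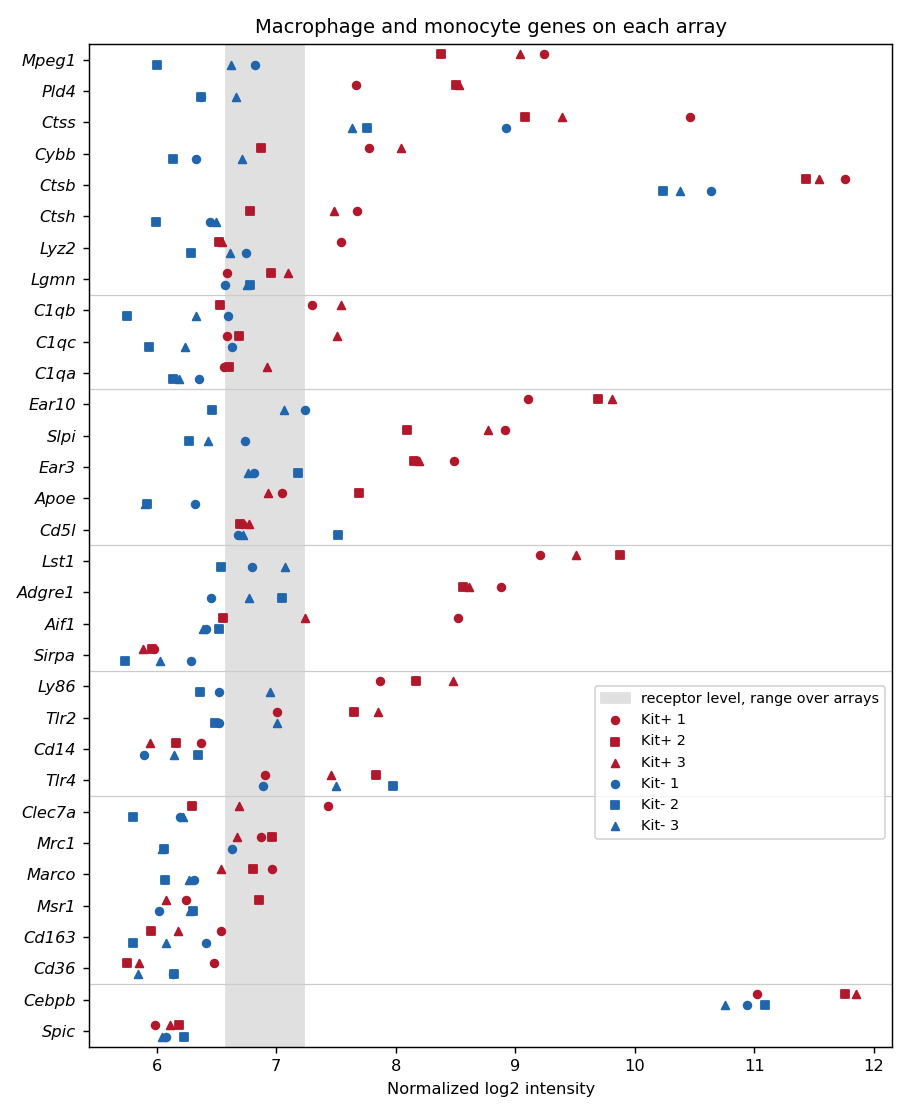
Normalized log2 intensity (horizontal axis) of the 32 genes with a probe on each of the 6 arrays, grouped by role and sorted within a role by difference. Red symbols are Kit+ and blue symbols Kit- samples, the symbol shape gives the title number, and the grey band spans the receptor level over the arrays, 6.58 to 7.23. Lst1, Ear10, Mpeg1, Slpi and Adgre1 lie right of the band in all 3 Kit+ samples, while Cd14, Cd163, Sirpa, Cd36 and Spic lie left of it in both groups.

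In Kit+ cells 15 members were higher and 0 were lower (limma with the title number as a block, Benjamini-Hochberg adjusted over all 11742 genes, threshold 0.05). At an unadjusted p under 0.05 in the same fit, 22 were higher and 0 lower. Over all tested genes 460, or 3.92%, were higher and 519, or 4.42%, were lower. With no filter on dim probes the count of members higher was again 15, now of 32, where 2.68% of all 17626 genes were higher. The fit without the block called 9 members higher, against 0.528% of all genes. Over all 32 members the median log2 fold was 0.78, beside 0.02 over all 17626 genes and 0.94 over the 9 neutrophil markers given below. The 3 Kit+ values all lay above the 3 Kit- values for 19 of the 32, beside 8.21% of all genes with a probe, and for 0 of the 32 did they all lie below. These counts describe a panel that was chosen with earlier results of these data known. When arrays were centred on their medians and not quantile normalized, 3 of the 15 passed, Lst1, Ear10 and Pld4, and over all genes 14 were higher and 10 lower in place of 460 and 519.

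The highest fold belonged to Lst1, a small leukocyte membrane protein encoded among the MHC class III genes. Lst1 stood at 9.21, 9.88 and 9.51 in Kit+ samples 1 to 3 and at 6.80, 6.54 and 7.07 in Kit- samples 1 to 3. The lowest Kit+ value was thus well clear of the highest Kit- value, and 2 of the 3 Kit- arrays were above the receptor level. The gene was 6.62-fold higher in Kit+ (log2 fold 2.73, SE 0.22, adjusted p = 0.000563). Its neighbour in the same gene region, Aif1, which encodes the actin-binding protein Iba1 of macrophages, stood at 8.52, 6.55 and 7.24 in Kit+ samples and at 6.41, 6.52 and 6.39 in Kit- samples. Only pair 1 and pair 3 differed by much, with 2.11 and 0.85 on the log2 scale against 0.04 in pair 2, and the gene did not pass (log2 fold 1.00, SE 0.33, adjusted p = 0.103). A second Aif1 probe was higher in Kit+ in all 3 pairs by a mean of 0.54. With the mean of all kept Aif1 probes the gene passed (log2 fold 0.77, adjusted p = 0.0431), and without pair 3 the adjusted p was 0.0366. A fit of 2 pairs leans more on the variance shared over genes. A call gained with a pair left out, here and below, is therefore not read as support for a gene.

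Adgre1, an adhesion-family receptor used as a surface marker of mouse macrophages, read 8.88, 8.56 and 8.61 in Kit+ samples and 6.45, 7.05 and 6.77 in Kit- samples. All 3 Kit+ values were above the receptor level and 1 of 3 Kit- values was. The difference was 3.79-fold (log2 fold 1.92, SE 0.21, adjusted p = 0.00129). The other annotated Adgre1 probe was at or under the receptor level on all 6 arrays, with means of 6.20 in Kit+ and 6.18 in Kit-. Sirpa, the inhibitory receptor for CD47 on phagocytes, was at or under the receptor level on all arrays, between 5.88 and 5.98 in Kit+ and between 5.74 and 6.29 in Kit-.

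Of the 8 lysosome and phagosome genes with a probe, 6 were higher in Kit+ and the remaining pair, Lyz2 and Lgmn, did not pass. Mpeg1, which encodes the pore-forming protein perforin-2 of phagocytes, stood at 9.24, 8.38 and 9.04 in Kit+ samples and at 6.82, 6.01 and 6.62 in Kit- samples. The groups were well apart, and the level was lowest in pair 2 on both sides. The fold was 5.28 (log2 fold 2.40, SE 0.16, adjusted p = 0.00043), with 1 of 3 Kit- arrays above the receptor level, and 3.93 with the receptor level in place of the Kit- readings under it. A second Mpeg1 probe was at or under that level on all 6 arrays.

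Pld4, an exonuclease that breaks down single-stranded nucleic acids in endolysosomes, read 7.66, 8.50 and 8.53 in Kit+ samples and 6.37, 6.37 and 6.66 in Kit- samples. It was above the receptor level on all Kit+ arrays and on none of the Kit- arrays, a difference of at least 2.65-fold (higher in Kit+, adjusted p = 0.00158); where a Kit- array was under the receptor level, such bounds use that level in place of the reading, while Kit+ readings stay as measured. Cybb, the catalytic chain of the phagocyte NADPH oxidase, read 7.77, 6.87 and 8.04 in Kit+ samples and 6.32, 6.14 and 6.72 in Kit- samples. The groups did not overlap, but the Kit+ value of pair 2 was under the receptor level, and the call (log2 fold 1.17, SE 0.19, adjusted p = 0.00871) was lost without the block (0.158) and with the mean of all kept Cybb probes (log2 fold 0.59, adjusted p = 0.0587).

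The cysteine cathepsins, proteases of the lysosome, went the same way at different brightness. Ctsb, present in most cell types, was bright in both groups, at 11.75, 11.43 and 11.54 in Kit+ samples and at 10.63, 10.24 and 10.38 in Kit- samples. Its pair differences were 1.12, 1.19 and 1.16, and the fold was 2.23 (log2 fold 1.16, SE 0.16, adjusted p = 0.00443, and 0.0534 without pair 2). A second Ctsb probe was higher in Kit+ in all 3 pairs, by a mean of 0.62. Ctss, which cuts the invariant chain of MHC class II, read 10.46, 9.08 and 9.39 in Kit+ samples and 8.92, 7.76 and 7.63 in Kit- samples. The spread within each group, with an SD of 0.73 in Kit+ and 0.71 in Kit-, came largely from pair 1, which was brightest on both sides. Pairing took that out, and the fold was 2.91 (log2 fold 1.54, SE 0.17, adjusted p = 0.00158, and 0.177 without the block). Ctsh read 7.68, 6.78 and 7.48 in Kit+ samples and 6.45, 5.99 and 6.50 in Kit- samples. It was above the receptor level on 2 Kit+ arrays and no Kit- array, and higher in Kit+ (adjusted p = 0.0109, 0.159 without the block and 0.0597 without pair 2). With that level in place of the Kit- readings the fold was 1.4. This is not a lower bound, since Kit+ 2 was itself under the level.

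Lyz2, the lysozyme that monocytes and macrophages make in bulk, was dim: it stood at 7.54, 6.52 and 6.54 in Kit+ samples and at 6.74, 6.29 and 6.61 in Kit- samples. The groups overlapped, and 1 array of each was above the receptor level (log2 fold 0.32, SE 0.20, adjusted p = 0.431). The 2 other Lyz2 probes differed by -0.13 and 0.03. Lgmn, an asparagine-specific lysosomal protease, ranged from 6.59 to 7.10 in Kit+ and from 6.57 to 6.78 in Kit- (adjusted p = 0.651).

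Secreted products gave 4 calls among 5 genes. The eosinophil-associated ribonuclease Ear10 read 9.10, 9.69 and 9.81 in Kit+ samples and 7.24, 6.46 and 7.06 in Kit- samples. That is a 6.12-fold difference (log2 fold 2.61, SE 0.25, adjusted p = 0.000828), with 2 of 3 Kit- arrays above the receptor level. A second Ear10 probe, dimmer, was higher in Kit+ in all 3 pairs by a mean of 1.26. Ear3 stood at 8.49, 8.15 and 8.19 in Kit+ samples and at 6.81, 7.18 and 6.76 in Kit- samples (2.56-fold, log2 fold 1.36, SE 0.19, adjusted p = 0.00423), and its other probe was above the receptor level on 1 of 6 arrays. These ribonucleases are close copies of each other, so a probe may read more than 1 of them and the identity of each is uncertain. Of 2 further family members on the array, looked up after these values were seen, Ear14 was at or under the receptor level on all 6 arrays and Ear6 on 5 of 6.

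Slpi, an inhibitor of neutrophil elastase and related proteases, read 8.91, 8.09 and 8.77 in Kit+ samples and 6.74, 6.27 and 6.43 in Kit- samples. The groups were far apart, 4.33-fold (log2 fold 2.11, SE 0.18, adjusted p = 0.000563), with 1 of 3 Kit- arrays above the receptor level. With that level in place of the Kit- readings under it, the fold was 3.28. Apoe, the apolipoprotein of lipid transport, read 7.05, 7.70 and 6.93 in Kit+ samples and 6.32, 5.92 and 5.90 in Kit- samples. It was above the receptor level on every Kit+ array and on none from Kit-, a difference of at least 1.32-fold (higher in Kit+, adjusted p = 0.0143, 0.0813 without the block and 0.0951 without pair 2). Cd5l, a lipid-binding protein that tissue macrophages secrete, showed no such pattern: it ranged from 6.70 to 6.77 in Kit+ and from 6.68 to 7.52 in Kit- (log2 fold -0.25, SE 0.21, adjusted p = 0.601).

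The 3 chains of C1q, which together start the classical complement pathway, were dim. C1qa read 6.57, 6.61 and 6.93 in Kit+ samples and 6.35, 6.13 and 6.18 in Kit- samples. C1qb read 7.30, 6.53 and 7.54 in Kit+ samples and 6.59, 5.75 and 6.33 in Kit- samples. C1qc read 6.59, 6.69 and 7.51 in Kit+ samples and 6.63, 5.93 and 6.23 in Kit- samples. In all 3 chains the widest difference was that of pair 3, at 0.74, 1.21 and 1.28 on the log2 scale. C1qb alone passed (log2 fold 0.90, SE 0.18, adjusted p = 0.0189, with 2 Kit+ arrays and 1 Kit- array above the receptor level), but not without the block (0.274), without pair 2 (0.0956) or without pair 3 (0.0768). C1qa and C1qc had adjusted p = 0.149 and 0.143. C1qc passed only without pair 1 (0.00447), the pair in which it was not higher in Kit+ (difference -0.05).

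Among sensors of microbial products, Ly86 and Tlr2 were higher, Tlr4 did not pass and Cd14 was too dim to be tested. Ly86 encodes MD-1, the partner of the receptor RP105, and read 7.87, 8.17 and 8.48 in Kit+ samples and 6.52, 6.36 and 6.95 in Kit- samples. The difference was 2.95-fold (log2 fold 1.56, SE 0.18, adjusted p = 0.00158), with 1 of 3 Kit- arrays above the receptor level. Tlr2, the receptor for bacterial lipoproteins, read 7.01, 7.65 and 7.85 in Kit+ samples and 6.52, 6.49 and 7.00 in Kit- samples. Every Kit+ value was above every Kit- value, though by little between Kit+ 1 and Kit- 3 (1.78-fold, log2 fold 0.83, SE 0.19, adjusted p = 0.0304; 0.219 without the block, 0.167 without pair 2 and 0.054 without pair 3).

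Tlr4, the receptor for lipopolysaccharide, read 6.90, 7.84 and 7.46 in Kit+ samples and 6.89, 7.97 and 7.50 in Kit- samples. Same-numbered samples were almost equal, and levels differed more between sorts than between groups (log2 fold -0.06, SE 0.17, adjusted p = 0.911; 0.15 with the mean of its kept probes). Cd14, the lipopolysaccharide co-receptor of monocytes, read 6.37, 6.16 and 5.94 in Kit+ samples and 5.90, 6.34 and 6.15 in Kit- samples, at or under the receptor level throughout.

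None of the 6 scavenger, lectin and phagocytic receptors passed, and only 3 of them were bright enough to be tested. Cd163, which takes up haemoglobin bound to haptoglobin, Msr1 and Cd36, which bind modified lipoproteins, stayed at or under the receptor level on all 6 arrays. Marco, Mrc1 (the mannose receptor) and Clec7a (the fungal glucan receptor dectin-1) had 3 Kit+ values above all 3 Kit- values, with log2 folds of 0.55, 0.59 and 0.74 (adjusted p = 0.0958, 0.0936 and 0.0595). These readings lie at or close to background. With the receptor level in place of the Kit- readings under it, the log2 folds were -0.06, -0.01 and -0.02. Marco and Clec7a were each above that level on 1 Kit+ array and on none from Kit-, and Mrc1 on 2 Kit+ arrays and 1 Kit- array. Of these, Clec7a passed without pair 3 (0.0403), while its 3 dimmer probes differed by -0.08, -0.11 and 0.23. With a smaller normexp offset of 16, Mrc1 and Clec7a had adjusted p = 0.0487 and 0.0176.

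Of the transcription factors, Spic, which red pulp macrophages need in the mouse, ranged from 5.99 to 6.19 in Kit+ and from 6.04 to 6.23 in Kit-, at or under the receptor level on all arrays. Cebpb, a bZIP factor of myeloid and many other cells, was bright, at 11.02, 11.75 and 11.85 in Kit+ samples and at 10.93, 11.09 and 10.75 in Kit- samples. The groups overlapped because of Kit+ 1, and the gene did not pass (log2 fold 0.62, SE 0.21, adjusted p = 0.122), except without pair 1 (0.0198).

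**Figure D2:**
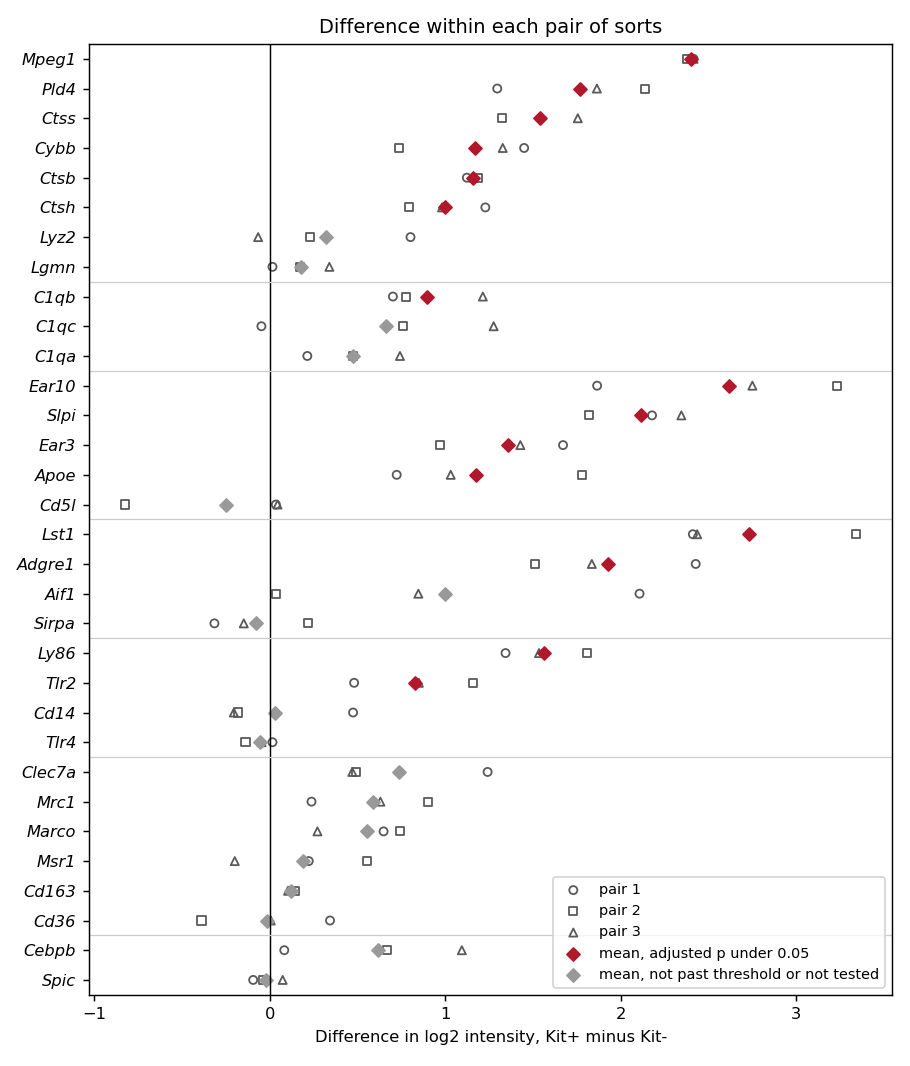
Difference in log2 intensity, Kit+ minus Kit-, within each of the 3 same-numbered pairs (open symbols) and as the mean (diamonds) for the 32 genes with a probe, in the order of the plot of levels. Red diamonds are the 15 genes with an adjusted p under 0.05. All 15 were higher in Kit+ in each of the 3 pairs, and among these 15 the symbols of Mpeg1 and Ctsb lie closest together.

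All 15 called members were higher in Kit+ in each of the 3 pairs, and for 14 of them, all but C1qb, the groups did not overlap. With the receptor level in place of Kit- readings under it, folds not given above were 5.64 for Lst1, 5.12 for Ear10 and 3.53 for Adgre1. In the same way Ear3 had 2.53, Ly86 2.38, Cybb 1.65, Tlr2 1.48 and C1qb 1.22. Among the 15, the widest difference was that of pair 1 for 4, of pair 2 for 7 and of pair 3 for 4. Over all 460 genes called higher these counts were 161, 241 and 58, so pair 2 led there too. The median difference of the called members was 1.45, 1.51 and 1.53 in pairs 1, 2 and 3, while over the 460 genes called higher it was 1.07, 1.14 and 0.70. Averaged over all 32 members with a probe, log2 intensity was 7.74, 7.56 and 7.72 in Kit+ samples and 6.83, 6.66 and 6.78 in Kit- samples.

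Promoter windows from RefSeq (build GRCm38.p6, 250 bases before to 50 after a gene's start) were at hand for 23 of the 33 members, in 27 windows. The windows of Mpeg1 and Slpi, both among the 5 members with the highest folds, and of Ctss and Pld4, called lysosomal genes, are shown 5′ to 3′ on the gene's own strand. Both strands were searched for GAGGAAG, a core bound by the macrophage factor PU.1, and TTGCNNAA, a core bound by C/EBP factors, and matches are in capitals; no match of one overlaps a match of the other.
Mpeg1 (chr19:12460520-12460819, plus strand): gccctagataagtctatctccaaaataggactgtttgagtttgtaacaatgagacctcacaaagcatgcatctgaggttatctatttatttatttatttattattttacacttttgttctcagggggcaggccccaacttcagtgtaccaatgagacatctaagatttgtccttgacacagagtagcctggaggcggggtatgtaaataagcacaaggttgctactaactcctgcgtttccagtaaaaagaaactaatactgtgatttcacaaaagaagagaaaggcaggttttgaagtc
Slpi (chr2:164356458-164356757, minus strand): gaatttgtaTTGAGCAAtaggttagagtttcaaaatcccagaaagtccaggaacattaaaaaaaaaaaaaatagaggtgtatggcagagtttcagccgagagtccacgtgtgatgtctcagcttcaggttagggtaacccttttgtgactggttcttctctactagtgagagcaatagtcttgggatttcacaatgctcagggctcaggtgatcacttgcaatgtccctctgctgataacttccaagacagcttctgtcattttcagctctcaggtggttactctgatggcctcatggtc
Ctss (chr3:95526536-95526835, plus strand): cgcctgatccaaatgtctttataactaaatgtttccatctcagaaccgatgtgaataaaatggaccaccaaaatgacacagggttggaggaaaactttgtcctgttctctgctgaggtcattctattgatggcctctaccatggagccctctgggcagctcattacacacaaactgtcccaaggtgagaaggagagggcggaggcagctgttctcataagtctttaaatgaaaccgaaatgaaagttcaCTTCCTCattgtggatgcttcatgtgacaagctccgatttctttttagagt
Pld4 (chr12:112760405-112760704, plus strand): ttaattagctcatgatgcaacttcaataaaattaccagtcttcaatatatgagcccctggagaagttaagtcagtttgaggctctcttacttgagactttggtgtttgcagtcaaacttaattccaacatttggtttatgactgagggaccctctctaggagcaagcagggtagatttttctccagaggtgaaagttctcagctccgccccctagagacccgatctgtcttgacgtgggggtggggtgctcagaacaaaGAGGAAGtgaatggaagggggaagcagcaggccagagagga
Ctss and Pld4 each hold 1 GAGGAAG, Ctss on the opposite strand, Slpi holds 1 TTGCNNAA on the opposite strand, and Mpeg1 holds neither in this window. GAGGAAG was in 6 of the 27 member windows (22.2%), those of C1qc, Cd5l, Ctss, Marco, Mrc1 and Pld4, and in 13.6% of all 32851 windows. TTGCNNAA was in 3 of 27 (11.1%), those of Cd68, Ear10 and Slpi, and in 10.8% of all windows. Among the 6 genes with GAGGAAG are both called members (Ctss, Pld4) and members that did not pass (C1qc, Cd5l, Marco, Mrc1).

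Further macrophage and monocyte genes, 45 that are not in the panel, were listed from textbook knowledge with earlier results known; 39 had a probe and 31 were tested. Of these, 8 were higher and 2 lower in Kit+, beside 3.92% and 4.42% of all tested genes, so the number lower is near the share over all genes. Slc40a1, the iron exporter of red pulp macrophages, read 9.41, 9.82 and 9.27 in Kit+ samples and 6.88, 6.68 and 7.03 in Kit- samples (log2 fold 2.64, SE 0.21, adjusted p = 0.000563). Vcam1, an adhesion molecule of splenic macrophages, read 9.77, 9.43 and 9.40 in Kit+ samples and 7.25, 7.60 and 7.23 in Kit- samples (log2 fold 2.18, SE 0.19, adjusted p = 0.000602). Both genes resemble Lst1 and Ear10 in that the groups lie far apart. Fcgr4, an activating Fc receptor, passed the receptor level on all 3 Kit+ arrays and none from Kit-, a difference of at least 5.28-fold (higher in Kit+, adjusted p = 0.000633). Axl, a receptor kinase for dying cells, Hmox1, which degrades haem, the cathepsin Ctsz and the lectin Clec4n had log2 folds of 1.67, 1.65, 1.53 and 0.73 (adjusted p = 0.00102, 0.00382, 0.00336 and 0.0309). The matrix protein Tgfbi, above the receptor level on none of the Kit- arrays, differed by at least 1.86-fold (higher in Kit+, adjusted p = 0.00404).

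The genes lower in Kit+ were the low-affinity Fc receptors Fcgr2b (log2 fold -0.69, SE 0.17, adjusted p = 0.0381) and Fcgr3 (log2 fold -0.71, SE 0.18, adjusted p = 0.0464), close relatives that a probe may confuse, and Fcgr3 is also used by NK cells. Neither passed without the block, where 6 of the list were higher and 0 lower (limma, 2 lower at an unadjusted p under 0.05), and with a pair left out 0 or 1 of the list was lower and 5 to 7 were higher. Hmox1 and Clec4n also did not pass without the block (adjusted p = 0.228 and 0.0964). Of the 39, 11 stayed at or under the receptor level on all 6 arrays, among them the macrophage receptors Fcgr1, Siglec1, Vsig4 and Trem2. Tyrobp and Fcer1g, adaptor chains that NK cells share with macrophages, were bright on all arrays and differed by 0.10 and 0.06 on the log2 scale. The list's median log2 fold over the 39 was 0.09.

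Some markers of other cell types were also called. Over all tested genes 3.92% were higher and 4.42% lower, and 0.528% were higher without the block. The lists below are counted over genes with a probe. Those tested numbered 8 for neutrophils, 11 for dendritic cells, 7 for B cells and 7 for erythroid cells. With so few genes in a list, 1 call is not read as a result about that cell type. Of 9 neutrophil markers with a probe, 4 were higher and 0 lower (S100a8, S100a9, Mpo and Camp). With no filter 3 of these passed, and without the block 0, where their adjusted p ranged from 0.0707 to 0.385. The neutrophil list's median log2 fold was 0.94, above the 0.78 of the macrophage and monocyte panel. Its mean level ranged from 6.96 to 7.83 in Kit+ and from 6.46 to 6.75 in Kit-, and Ngp was at or under the receptor level on all arrays. Of 14 dendritic cell and MHC class II markers 5 were higher and 0 lower (1 without the block, Batf3). The 5 were Batf3 and the MHC class II genes H2-Aa, H2-Ab1 and H2-Eb1 with the invariant chain Cd74. Itgax, Zbtb46, Xcr1, Siglech and Ciita did not pass, with log2 folds of 0.17, -0.22, 0.06, -0.07 and -0.09, and the list's median was 0.06. H2-Aa and Itgax were the brightest, and the mean level ranged from 7.72 to 8.27 in Kit+ and from 7.19 to 7.54 in Kit-. Flt3, Clec9a, Cd209a and Ccr9 were at or under the receptor level on all arrays. Of 7 B cell markers 1, Cd79b, was higher (adjusted p = 0.0143, and 0.524 without the block) and 0 lower, with Cd79b and Cd79a the brightest, and the means were 6.66 to 7.43 in Kit+ and 6.38 to 6.91 in Kit-, the highest on both sides being pair 3; Pax5 and Ebf1 were at or under the receptor level. Of 7 erythroid markers 0 passed in limma (3 higher and 0 lower at an unadjusted p under 0.05), with Hba-a1 and Hbb-bt the brightest and means of 7.33 to 7.46 in Kit+ and 6.73 to 7.15 in Kit-.

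Of 10 mast cell and basophil markers 0 were higher and 1 lower, the chymase Cma1, which some NK cells also make. The shares over all tested genes, 3.92% higher and 4.42% lower, stand beside the counts here too. Tested were 6 of the mast cell and basophil, 8 of the T cell and 11 of the NK cell markers. Cma1 and Ms4a2 were the brightest, and 6 of the 10 (Cpa3, Mcpt4, Tpsb2, Tpsab1, Fcer1a and Hdc) were at or under the receptor level on all arrays. The mean level was 6.46 to 6.57 in Kit+ and 6.61 to 6.75 in Kit-. Cma1 had a log2 fold of -2.18, while the list's median log2 fold was 0.03. Of 9 T cell markers 1 was higher, Cd3d (adjusted p = 0.00331, and 0.194 without the block), and 0 lower, with Cd3d and Lat the brightest and means of 7.88 to 8.14 in Kit+ and 7.68 to 7.92 in Kit-; Cd4, Cd8a and Cd5 were at or under the receptor level. Of 12 NK cell markers 1 was higher (Cd160) and 4 lower (Nkg7, Prf1, Eomes and Tbx21); without the block 0 were higher and 2 lower (Prf1 and Eomes). Nkg7 and Klrd1 were the brightest, and the mean level of the list was 10.16 to 10.45 in Kit+ and 10.45 to 10.87 in Kit-. What part these other cell types have in the macrophage and monocyte result was not tested.

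**Figure D3:**
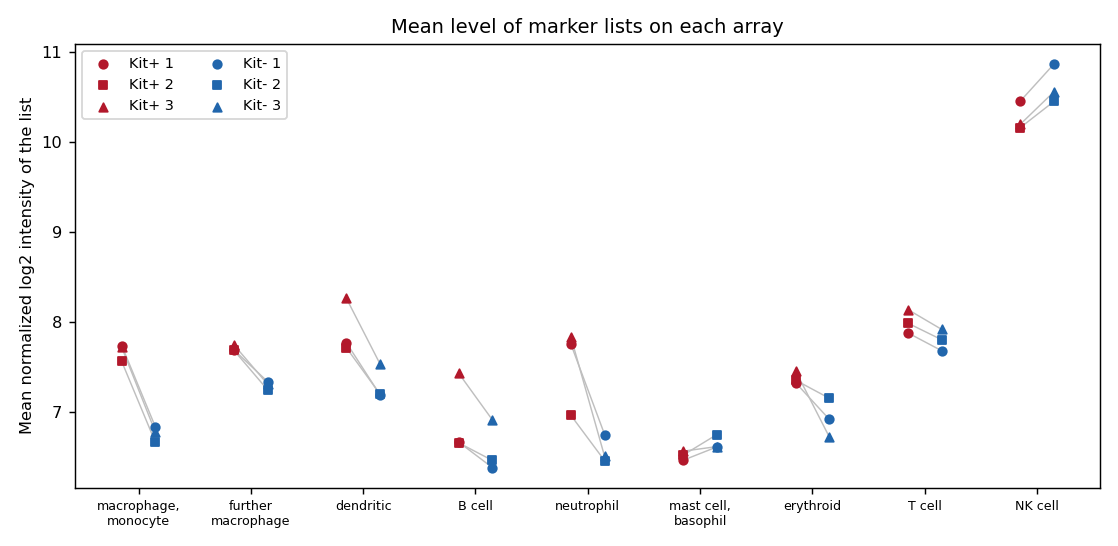
Mean normalized log2 intensity (vertical axis) of each marker list on each array, Kit+ in red at the left and Kit- in blue at the right of each list. Grey lines join the samples of the same title number. The 32 panel genes with a probe averaged 7.56 to 7.74 in Kit+ and 6.66 to 6.83 in Kit-, and the neutrophil, dendritic cell, B cell, erythroid and T cell lists were also higher in the Kit+ sample of every pair, while the NK cell and the mast cell and basophil lists were lower in it. In the mast cell and basophil list Cma1 had a log2 fold of -2.18, while the median of that list was 0.03.

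**Figure D4:**
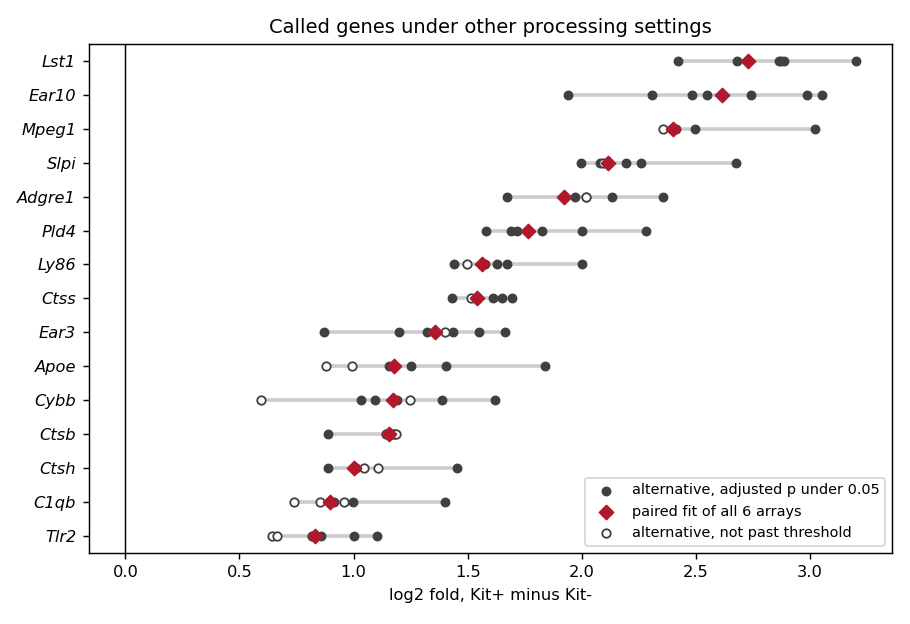
Log2 fold, Kit+ minus Kit-, of the 15 called genes in the paired fit of all 6 arrays (red diamonds) and under the other processing settings (circles, filled where the adjusted p was under 0.05), with a grey line over the range. All folds stay above 0, and Lst1, Ear10 and Pld4 have filled circles only.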

How the data were processed

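RNA from sorted mouse spleen NK cells, 3 Kit+ and 3 Kit- samples, was amplified and biotin labelled from 50 to 100 ng and hybridised to Illumina bead arrays, per the labels' protocols. BeadStudio 3.1.1.0 is named in the submitters' processing notes. Per the file headers, each deposited array table gives unnormalized intensity, linear, for 45988 probes, with no detection p-value; a background correction before deposit is not given in the sources used here. The deposited value table holds intensity too, with a median of 92.8 in every column, and matched a quantile normalization of the raw values to within 0.000223 of a value, so it is linear, not centred and of the same direction.

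With limma 3.58.1 in R 4.3.3, intensities went through normexp correction (offset 50), log2 and quantile normalization. Probes whose mean was above the median of all probes were kept (22994). Of the probes, 29457 had 1 gene symbol, 11 several and 16520 none listed; 29399 of the 29457 were matched by gene ID to a RefSeq table of GRCm38.p6. Probes with several symbols named no gene. Groups were compared with lmFit and eBayes, which shares variance over genes, with the title number as a block. The p-values were adjusted over all tested genes. Deviations from the group mean correlated across genes at 0.278 to 0.641 between samples of 1 number, against -0.576 to 0.0882 between samples of different numbers. Such deviations cancel within a group, so a positive correlation within a number lowers the others, and the contrast is partly built in. The raw 99th percentile was 4850 on Kit+ 1 and 6370 on Kit- 1, and between 1027 and 1951 on the other arrays. The labels state that sort and comparison were done 3 times, and the title numbers, which are not named as sorts, were taken as pairs.

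Members, lists, probe rule and block were chosen with earlier results of these data known. Called members, members above the receptor level on all arrays, Adgre1, Lyz2, Cd14 and the C1q chains were to be given on every array, and of the further macrophage genes those past the threshold. Alternatives were the fit without the block, the deposited value table, median centring, an offset of 16, no filter or a stricter one, averaging the kept probes of a gene, other receptor percentiles, and each pair left out. The code was tested on simulated data. The number of arrays limits the precision.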

Additional observations from a re-analysis of the deposited data

How the results depend on the processing

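Under the fit without the replicate block, members higher in Kit+ numbered 9, all genes higher 62 and lower 89, and the further macrophage genes lower 0. Median centring gave 3 members, 2 and 0 further macrophage genes, and 14 and 10 of all genes; the cause was not tested. Further macrophage genes lower numbered 2 in the paired fit, 1 with the deposited value table or with kept probes averaged, and 0 with an offset of 16. With 1 pair left out, 2 pairs remain, and the fit has fewer samples and leans more on the variance shared over all genes. Its p-values moved widely. The adjusted p of Lst1 was 2.69e-23 without pair 1, 0.0203 without pair 2 and 1.12e-07 without pair 3, beside 0.000563 with all pairs. Members higher ranged from 10 to 17, further macrophage genes higher from 5 to 7 and lower from 0 to 1. All genes higher ranged from 62 to 687 and lower from 98 to 554, with the lowest counts of all genes without pair 2. The block was part of the paired fit; leaving it out lost C1qb, Ctss, Ctsh, Apoe, Cybb and Tlr2 and changed no other member call. Of the 15 called members 3 passed in every setting in which they were tested, and none changed sign in any; Ctsh was left out of the stricter filter. The log2 folds that turned were those of Cd5l (-0.39 to 0.040 with a pair left out, the positive value without pair 2) and Tlr4 with the mean of kept probes (0.15), neither past the threshold. Members at or under the receptor level on all arrays numbered 5 at the 90th percentile and 8 at the 99th in place of 6, and those above it on all arrays 5 and 4 in place of 4. Signal close to background limits the dim members most.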
